A study of Mus musculus with 6 samples.

Results

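Transcription factors that set cell lineage or answer acute stress were described here in the injured mouse colon. The genes were chosen by name alone, as the protein-coding genes whose symbol begins with one of 35 family prefixes such as Hox, Sox, Fox, Klf, Cebp, Nr or Snai, and 44 of the 2195 genes in the deposited table met that rule. RNA-Seq libraries came from colon tissue of 3 Gab1IEC-KO mice (labelled KO), whose Gab1 is deleted by Villin-Cre in intestinal epithelial cells, and of 3 Gab1fl/fl littermates (labelled WT). Villin-Cre acts in the epithelium of the small and large intestine, whereas the RNA came from whole flushed colon with its epithelium, stroma, nerves and blood cells. All mice were 8 to 10 weeks old and had taken 3% DSS, a detergent that injures the colonic epithelium, in drinking water for 7 days, so every value below is from an inflamed colon and none from a colon without DSS.

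Lineage factors bind the control regions of cell type genes and hold a cell in its identity. In the colon, Gata, Klf and Foxa factors act in the epithelium, Foxf, Tbx, Hox and Meis factors in the mesenchyme, Sox10 in the enteric glia and Runx1 in blood cells. Immediate-early factors such as Nr4a1 and Fosb are transcribed within minutes of a signal and need no new protein, whereas C/EBP factors drive the acute-phase response.

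The deposited table was limited to genes for which the authors' own test gave an unadjusted p below 0.05, which bears on every count below. A gene that is not listed had a larger p there or was not tested, and it has no value here. Values are normalized counts, that is reads per gene divided by a size factor of the library, and the depth of the libraries is unknown. A mean ± SD is over 3 libraries per genotype. Gab1 itself was not listed, so the deletion could not be checked. Of the colon's own markers, goblet cell genes were plentiful, with a summed level for 3 listed markers of 53366 to 81795 normalized counts in KO and 105610 to 165712 in WT libraries, while 2 of 14 colonocyte markers and none of 8 smooth muscle or 8 enteroendocrine markers were listed. Among genes higher in KO, KO2 was the lowest KO library for 68.1% and WT1 the highest WT library for 81%, so these libraries lay nearest to the other genotype.

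Families were represented unevenly. The annotation (GENCODE M21) holds 316 protein-coding genes that meet the rule, of which 44 or 13.9% were listed, against 8.8% of all 21951 protein-coding genes. Both Zeb genes, 2 of 3 Snai, 2 of 3 Twist, 2 of 3 Meis and 3 of 7 Cebp genes were listed, but 5 of 45 Fox, 3 of 39 Hox, 2 of 19 Sox and 2 of 17 Klf genes. No gene was listed of 14 other families, among them the AP-1 and stress families Jun (3 annotated genes), Atf (10) and Egr (4), the Notch targets Hes (7) and Hey (3), the intestinal Cdx genes (3) and Myc (8).

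Of the 44 members, 30 (68.2%) had a higher level and 14 a lower level in KO than in WT colons, against 70.0% higher among all 2195 listed genes. Their median log2 fold change was 0.75, against 0.79 over all listed genes. The thresholds of the study ask for an absolute log2 fold change over 1 together with an unadjusted p under 0.05. On these, 13 members (29.5%) passed in limma, against 37.6% of all listed genes. Of the 13, 12 were higher in KO (27.3% of members, against 28.5% of listed genes) and 1 was lower (2.27%, against 9.16%). Without the fold threshold 25 members passed (56.8%, against 55.0%), of which 17 were higher (38.6%, against 40.0%) and 8 lower (18.2%, against 14.9%). Every KO library lay above every WT library for 16 members (36.4%, against 43.0% of listed genes), and below for 8 (18.2%, against 19.3%). With 3 mice per genotype, the smallest two-sided p of an exact permutation test is 0.1. These shares lie near the background and are not a result about the members.

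No member had an adjusted p under 0.05 in limma, where the background was 0% and the lowest adjusted p among members was 0.384 (Benjamini-Hochberg over 16716 genes). The 25 at an unadjusted p under 0.05 were the 13 past both thresholds, which are Nr4a1, Nr4a2, Cebpb, Snai1, Snai2, Twist2, Foxf1, Tbx4, Meis2, Tcf24, Foxd4, Nr2c2ap and Rarres1, and others with smaller folds, among them Cebpd, Klf2, Runx1 and Rarres2 (higher) and Gata6, Klf5, Cebpa, Ppard, Nr3c2, Nr1d1 and Ppargc1a (lower). Nor did edgeR's quasi-likelihood test call any member at an adjusted p under 0.05, with a background of 0%, and 23 members had an unadjusted p under 0.05 there. DESeq2 called 2 members, Nr4a1 (adjusted p = 0.00104) and Snai2 (adjusted p = 0.0378), against 5.33% of listed genes, and 29 had an unadjusted p under 0.05. The counts rested on single libraries. Without WT1, 25 members passed both thresholds of the study, without KO2 23, and without WT2 9. All listed genes moved the same way, with 1210 of 2195 past both without WT1, 1120 without KO2 and 507 without WT2. With all libraries it was 826. Scaling the libraries instead by their median ratio over the listed genes shifted the median log2 fold change of all listed genes by -0.65, and with it the split of members past both thresholds became 5 higher and 14 lower, against 12 higher and 1 lower on the deposited scale (for all listed genes, 184 higher and 639 lower). The shifted scale is set by genes that were listed for a difference, most of them higher in KO.

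**Figure D1:**
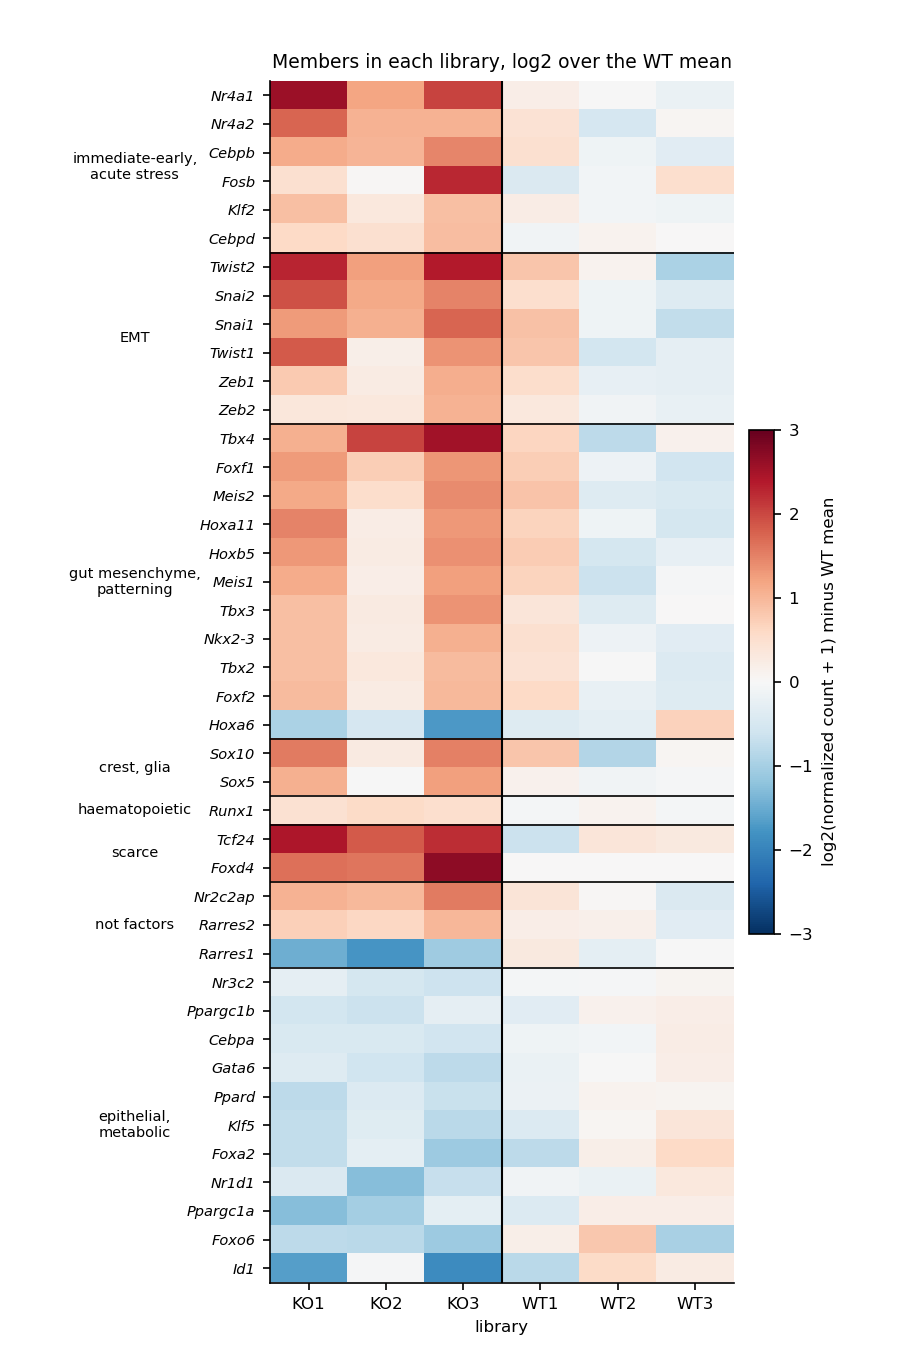
Levels of 42 members (rows, grouped by known role) in the 3 KO and 3 WT libraries (columns), as log2(normalized count + 1) minus the mean of the WT libraries, with red for higher and blue for lower. The rows of epithelial and metabolic genes at the foot were blue in KO, most of the rest were red, and KO2 was the palest KO library and WT1 the reddest WT library for most rows that were higher in KO.

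The members were sorted by known role after their values were seen, so a direction shared within any group below is a description. With the immediate-early and acute stress factors 6 were placed, Klf2 among them. All 6 had a higher level in KO, with log2 fold changes of 0.67 to 1.92 and a median of 1.07. Nr4a1, Nr4a2 and Cebpb passed both thresholds (against 28.5% higher among listed genes), and 5 had an unadjusted p under 0.05 (against 40.0%). For those 5 every KO library lay above every WT library, against 43.0% of listed genes. These shares are over listed genes of both directions. Of all 2195 listed genes 1536 were higher in KO. Of those, 625 passed both thresholds, 879 had an unadjusted p under 0.05 and 943 did not overlap between genotypes. The 5 members at an unadjusted p under 0.05 became 3 without KO1 or WT2 and 4 without KO3 or WT3.

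Nr4a1, the orphan nuclear receptor Nur77, lies on chromosome 15 from 101254269 to 101274795 (GRCm38). It had 867, 334 and 595 normalized counts in the KO libraries, against 168, 146 and 127 in the WT libraries. The lowest KO library was still well above the highest WT library. The log2 fold change was 1.92 (standard error 0.38, adjusted p = 0.384), and it passed both thresholds under every setting tried. Nr4a2 (Nurr1), its close relative (chromosome 2 from 57106830 to 57124003), had 230, 142 and 142 normalized counts in KO, against 93.3, 47.8 and 71.8 in WT. Its log2 fold change of 1.27 (standard error 0.39, adjusted p = 0.497) did not pass without KO1 (log2 fold change 1.04) or without WT2 (1.02), where the unadjusted p was over 0.05. Nor did it pass with the median-ratio scaling (0.62). The third Nr4a gene, Nr4a3, was not listed.

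Cebpb and Cebpd encode C/EBPβ and C/EBPδ, which activate acute-phase and cytokine genes. Cebpb (chromosome 2 from 167688915 to 167690418) had 1544, 1446 and 1950 normalized counts in KO, against 990, 643 and 557 in WT (log2 fold change 1.2, standard error 0.28, adjusted p = 0.389). It passed both thresholds with any single library left out, but not with the median-ratio scaling (log2 fold change 0.55). Cebpd had 3861, 3567 and 4813 normalized counts in KO, against 2370, 2738 and 2558 in WT (log2 fold change 0.67, standard error 0.19, adjusted p = 0.478). Both genes had high levels per length, at 1095 and 1089 normalized counts per kilobase of exon in KO, against 486 and 682 in WT. The groups of libraries did not overlap for either gene.

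Klf2, a factor of quiescent endothelium and T cells, had 736, 492 and 739 normalized counts in KO and 461, 373 and 362 in WT (log2 fold change 0.70, standard error 0.27, adjusted p = 0.619). Its unadjusted p was over 0.05 without KO1, KO3, WT2 or WT3. Fosb, which encodes an AP-1 subunit, was uneven. It had 110, 80.7 and 379 normalized counts in KO, against 58.2, 74.3 and 112 in WT. KO3 alone stood above all WT libraries, and the log2 fold change of 0.93 (standard error 0.60, adjusted p = 1) did not pass.

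The promoter windows of Nr4a1, Nr4a2, Fosb and Cebpb are printed because these factors are activated by signal-dependent kinases, and the cAMP response element (CRE) that binds the factor CREB is a known entry point for such signals. Each window runs from 250 bases before to 50 after the transcription start, 5′ to 3′, from RefSeq on GRCm38.p6, at chr15:101266596-101266895 (plus strand) for Nr4a1, chr2:57123954-57124253 (minus strand) for Nr4a2, chr7:19309996-19310295 (minus strand) for Fosb and chr2:167688665-167688964 (plus strand) for Cebpb. Capitals mark the short CRE core TGACG on either strand, so that CGTCA is the same site read from the other strand.
Nr4a1: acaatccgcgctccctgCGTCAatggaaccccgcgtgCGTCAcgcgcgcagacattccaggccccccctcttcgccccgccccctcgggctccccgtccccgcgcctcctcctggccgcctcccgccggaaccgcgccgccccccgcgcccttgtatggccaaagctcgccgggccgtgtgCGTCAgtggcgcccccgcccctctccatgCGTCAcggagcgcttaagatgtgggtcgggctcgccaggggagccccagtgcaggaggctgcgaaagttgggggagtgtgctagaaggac
Nr4a2: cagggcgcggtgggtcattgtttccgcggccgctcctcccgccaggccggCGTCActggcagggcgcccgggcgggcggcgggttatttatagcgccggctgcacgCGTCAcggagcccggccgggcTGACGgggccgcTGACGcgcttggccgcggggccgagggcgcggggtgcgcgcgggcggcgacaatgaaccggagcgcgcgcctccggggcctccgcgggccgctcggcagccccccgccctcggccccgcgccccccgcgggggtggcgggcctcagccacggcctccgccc
Fosb: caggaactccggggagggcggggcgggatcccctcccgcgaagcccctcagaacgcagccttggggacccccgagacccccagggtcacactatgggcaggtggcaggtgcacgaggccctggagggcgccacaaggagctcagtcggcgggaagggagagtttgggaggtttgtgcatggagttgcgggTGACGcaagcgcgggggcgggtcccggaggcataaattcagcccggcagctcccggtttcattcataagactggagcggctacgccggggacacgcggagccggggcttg
Cebpb: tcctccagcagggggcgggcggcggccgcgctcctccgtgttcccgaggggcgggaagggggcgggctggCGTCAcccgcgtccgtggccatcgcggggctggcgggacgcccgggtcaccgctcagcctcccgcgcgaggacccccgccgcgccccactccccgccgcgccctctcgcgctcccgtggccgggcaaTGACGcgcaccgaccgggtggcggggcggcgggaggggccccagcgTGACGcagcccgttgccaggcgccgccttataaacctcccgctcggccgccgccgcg

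The Nr4a1 window held 4 cores, whose first bases lie at -233, -213, -69 and -40 from the start, all in the CGTCA orientation. Nr4a2 also held 4, at -200, -144, -123 and -111, while Cebpb held 3, at -180, -53 and -7, and Fosb held 1, at -60. At least 4 cores were present in 0.231% of all 32851 promoter windows and at least 1 in 20.8%. Promoter windows matched 27 of the 44 members, and 15 of these (55.6%) held a core, against 23.0% of all 27025 genes with a window. Members of both directions are among the 15, with Foxa2, Hoxa6, Ppard, Ppargc1a and Rarres1 lower in KO and the rest higher. The member windows were richer in G and C, with a median of 60.7% against 52.7% over all windows. The windows printed above had 72.3% (Nr4a1), 81.7% (Nr4a2), 68.3% (Fosb) and 80.7% (Cebpb). The part of base composition in the counts of cores was not tested. None of the 27 members held the full element TGACGTCA, which is in 2.03% of genes with a window, or a CArG box (the site of serum response factor), which is in 1.81%. Zeb2 alone held the AP-1 site TGANTCA, which is in 8.97% of genes with a window. A match is a run of letters and says nothing of binding.

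Of 29 genes known as targets of AP-1 or immediate-early signals, 12 were listed, Nr4a1 among them. All 12 had a higher level in KO (against 70.0% of listed genes). Of the 12, 9 passed both thresholds (against 28.5% higher among listed genes, or 625 of the 1536 that were higher). Their median log2 fold change was 1.66. Mmp13, which encodes a matrix metalloproteinase, had 1855, 541 and 1453 normalized counts in KO, against 211, 213 and 85.2 in WT (log2 fold change 2.85, adjusted p = 0.384). Ptgs2, the inducible cyclooxygenase, had 1565, 414 and 441 in KO, against 132, 121 and 104 in WT (log2 fold change 2.46). The osteopontin gene Spp1 had a log2 fold change of 2.74. For these 3 genes every KO library lay above every WT library.

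**Figure D2:**
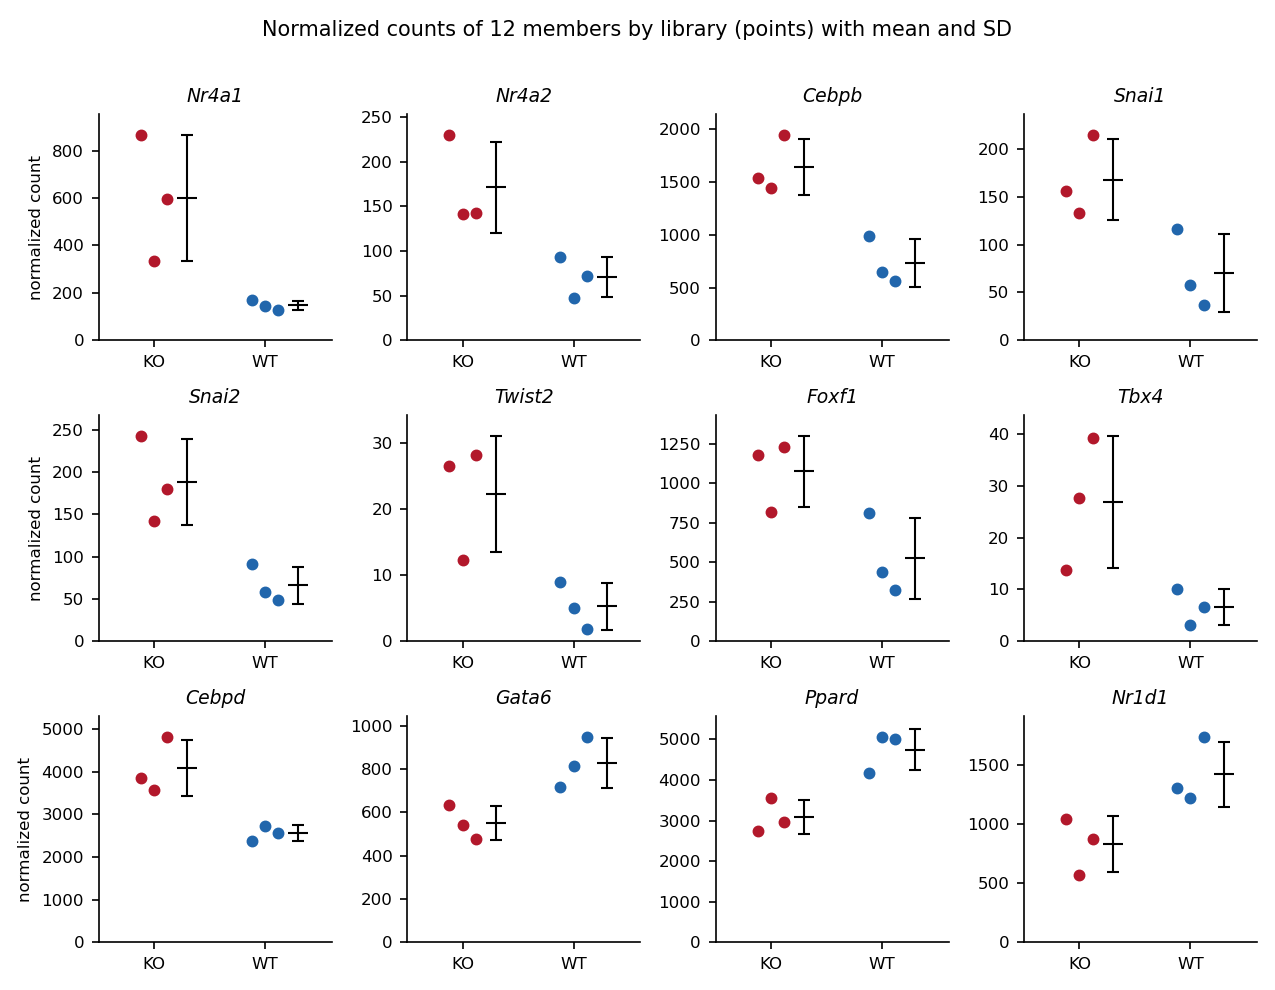
Normalized counts of 12 members in the 3 KO and 3 WT libraries (points), with the mean and SD of each genotype beside them, each axis starting at 0. For these 12 genes the KO and WT points do not overlap, with KO above WT for 9 and below it for Gata6, Ppard and Nr1d1. The 12 are among the 24 members without overlap, and no member that overlaps is drawn. Among all listed genes 43.0% lay above and 19.3% below without overlap.

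Factors of epithelial-mesenchymal transition (EMT) were the next group. Snail, Twist and Zeb proteins repress epithelial adhesion genes such as that of E-cadherin, and they are also made by fibroblasts and other stromal cells. All 6 listed genes had a higher level in KO, against 70.0% of all listed genes, with a median log2 fold change of 1.24. Snai1, Snai2 and Twist2 passed both thresholds. Of all 2195 listed genes 28.5% passed both as higher, or 625 of the 1536 that were higher. Zeb2, at 0.57, turned to -0.09 with the median-ratio scaling, and the other 5 kept their sign. On that scale 1 of the 6 passed both thresholds, and 184 of all 2195 listed genes passed as higher.

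Snai2 (Slug, chromosome 16 from 14705852 to 14709385) had 243, 142 and 180 normalized counts in KO, against 91.3, 58.0 and 48.8 in WT. The log2 fold change was 1.51 (standard error 0.38, adjusted p = 0.429), and it passed with any single library left out. With the median-ratio scaling it was 0.86 and did not pass. Snai1 (Snail, chromosome 2 from 167538195 to 167542814) had 156, 133 and 215 normalized counts in KO, against 116, 58.0 and 37.3 in WT (log2 fold change 1.37, standard error 0.47, adjusted p = 0.566). WT1 reached close to the lowest KO library, KO2. The Snai1 call was lost without KO3 (log2 fold change 1.17), WT2 (1.30) or WT3 (0.99), and with the median-ratio scaling (0.71).

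Twist2 (chromosome 1 from 91801461 to 91848028), a basic helix-loop-helix factor of mesoderm and dermis, was scarce at 26.5, 12.3 and 28.3 normalized counts in KO, against 9.03, 5.09 and 1.92 in WT (log2 fold change 1.97, standard error 0.59, adjusted p = 0.485). Its exons share 46.5% of their bases with Gm29100 on the opposite strand, and since the library kit is not stated to keep strand, reads of the pair cannot be told apart. Twist1 had 150, 46.0 and 106 normalized counts in KO and 73.3, 27.5 and 33.5 in WT (log2 fold change 1.12, standard error 0.57, adjusted p = 0.793). KO2 lay below WT1 for Twist1. Zeb1 and Zeb2 also overlapped between genotypes, at log2 fold changes of 0.71 (adjusted p = 0.74) and 0.57 (adjusted p = 0.779).

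Snail and Zeb proteins bind the E-box CAGGTG, and the Snai1 promoter itself carries that word. Its RefSeq window on GRCm38.p6, at chr2:167537945-167538244 (plus strand), is printed with the E-box in capitals, read as CACCTG from this strand, with its first base at -126 from the start.
Snai1: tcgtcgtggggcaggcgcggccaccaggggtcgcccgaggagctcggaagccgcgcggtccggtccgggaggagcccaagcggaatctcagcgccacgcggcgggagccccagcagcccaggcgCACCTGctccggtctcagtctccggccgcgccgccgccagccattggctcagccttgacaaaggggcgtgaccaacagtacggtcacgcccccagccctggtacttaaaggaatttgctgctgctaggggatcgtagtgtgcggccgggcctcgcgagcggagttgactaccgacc

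Of the 27 matched members, 4 (14.8%) held this E-box, namely Snai1, Fosb, Runx1 and Ppargc1a, against 22.6% of all genes with a window.

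Of 19 genes that EMT factors are known to raise, 8 were listed, all 8 with a higher level in KO (against 70.0% of listed genes). Both thresholds were passed by 3 (against 28.5% higher among listed genes, or 625 of the 1536 that were higher). The median log2 fold change was 0.80. Lox, the lysyl oxidase that cross-links collagen, had 1499, 564 and 3265 normalized counts in KO, against 465, 177 and 194 in WT (log2 fold change 2.47, standard error 0.65, adjusted p = 0.429). Its relative Loxl2 and the matrix gene Sparc had log2 fold changes of 1.68 and 1.08, and Tgfbi had 0.91. Vim, Tgfb1, Thy1 and Fap, the other genes listed, did not pass both thresholds. Fibroblasts also make products of this list, among them the matrix proteins of Lox and Sparc and the surface proteins of Thy1 and Fap. E-cadherin and Epcam were not listed.

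All 12 fibroblast markers were listed with a higher level in KO, against 70.0% of listed genes. Their median log2 fold change was 1.02, against 0.79 over all listed genes. Of the markers 6 passed both thresholds, against 28.5% higher among listed genes. The summed level of all 12 was 52352 to 93678 normalized counts in KO libraries and 25657 to 39168 in WT libraries. None of the markers was at 0 in any library. The mean log2 difference of the 6 EMT factors between KO and WT was 1.21, and that of the fibroblast markers 0.97. How far a larger share of fibroblast RNA enters the EMT factor levels was not tested, and in bulk tissue more cells of a type and more RNA per cell cannot be told apart.

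Factors that pattern the gut mesenchyme and the body axis made up 11 members, 10 with a higher level in KO and 1 (Hoxa6) with a lower level, with a median log2 fold change of 0.85. Foxf1, Tbx4 and Meis2 passed both thresholds. Among all listed genes 70.0% were higher in KO, the median was 0.79 and 28.5% passed both thresholds as higher. Of the 11 members, the number past both fell to 1 higher and 0 lower without KO1, KO3, WT2 or WT3. It was 7 higher and 1 lower without KO2 and 8 higher and 1 lower without WT1. The count of all listed genes past both as higher, 625 with all libraries, moved the same way. It was 314 without WT3, 372 without WT2, 379 without KO3, 465 without KO1, 876 without KO2 and 902 without WT1. The mean log2 difference was 0.80 for the 11 factors and 0.97 for the fibroblast markers. In both, KO2 was the lowest and KO3 the highest KO library, and WT1 the highest WT library. This order is not particular to them. The EMT factors, Sox10 with Sox5 and the enteric neuron and glia markers had it too. Among all listed genes higher in KO, KO2 was the lowest KO library for 68.1% and WT1 the highest WT library for 81%.

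Foxf1 (chromosome 8 from 121084386 to 121088144), a forkhead factor that Hedgehog signals induce in gut mesenchyme, had 1181, 817 and 1230 normalized counts in KO, against 816, 437 and 327 in WT (log2 fold change 1.12, standard error 0.37, adjusted p = 0.541). KO2 and WT1 lay within 2 normalized counts of each other. The call was lost without KO1 (log2 fold change 1.04), KO3 (1.01), WT2 (1.03) or WT3 (0.83), and with the median-ratio scaling (0.46). Its relative Foxf2 had 395, 245 and 404 normalized counts in KO and 312, 177 and 157 in WT (log2 fold change 0.72, adjusted p = 0.804), and the groups overlapped.

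Among the T-box genes, Tbx4 (chromosome 11 from 85886422 to 85916097), known for hindlimb and lung mesenchyme, was scarce, at 13.8, 27.6 and 39.2 normalized counts in KO, against 10.03, 3.05 and 6.70 in WT (log2 fold change 1.87, standard error 0.57, adjusted p = 0.485). It passed both thresholds under every setting tried. Tbx2, its neighbour on chromosome 11, had 360, 241 and 370 normalized counts in KO and 259, 191 and 144 in WT (log2 fold change 0.72, adjusted p = 0.727). Tbx3 had 278, 180 and 379 in KO and 190, 114 and 150 in WT (log2 fold change 0.84, adjusted p = 0.703). For both Tbx2 and Tbx3, KO2 lay below WT1.

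Meis1 and Meis2 encode cofactors of Hox proteins. Meis2 (chromosome 2 from 115863064 to 116065839) had 482, 316 and 586 normalized counts in KO, against 399, 168 and 159 in WT, so that WT1 lay above KO2. Its log2 fold change of 1.02 (standard error 0.43, adjusted p = 0.689) was the closest to the thresholds. The call was lost in edgeR, in DESeq2 and without KO1, KO3, WT2 or WT3, at log2 fold changes of 0.78 to 0.96 without them. With the median-ratio scaling the log2 fold change was 0.36 and did not pass. Meis1 had a log2 fold change of 0.85 (adjusted p = 0.834). Nkx2-3, a homeobox gene of gut mesenchyme and of vessels that home lymphocytes, had 673, 427 and 759 normalized counts in KO and 503, 326 and 284 in WT (log2 fold change 0.74, adjusted p = 0.713).

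The 3 listed Hox genes did not share a direction. Hoxa11 had 288, 118 and 251 normalized counts in KO and 162, 92.6 and 69.9 in WT (log2 fold change 1.0, standard error 0.47, adjusted p = 0.732). Hoxb5 had 147, 70.5 and 153 in KO and 101, 40.7 and 49.8 in WT (log2 fold change 0.97, adjusted p = 0.789). Hoxa6 had 55.2, 75.6 and 31.9 normalized counts in KO, against 82.3, 87.5 and 176 in WT, and no KO library reached a WT library. Its log2 fold change was -1.07 (standard error 0.47, adjusted p = 0.701). It depended on KO3 and WT3, since it was -0.74 without the one and -0.72 without the other. Hoxa11 shares 35% of its exon bases with the antisense gene Hoxa11os.

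**Figure D3:**
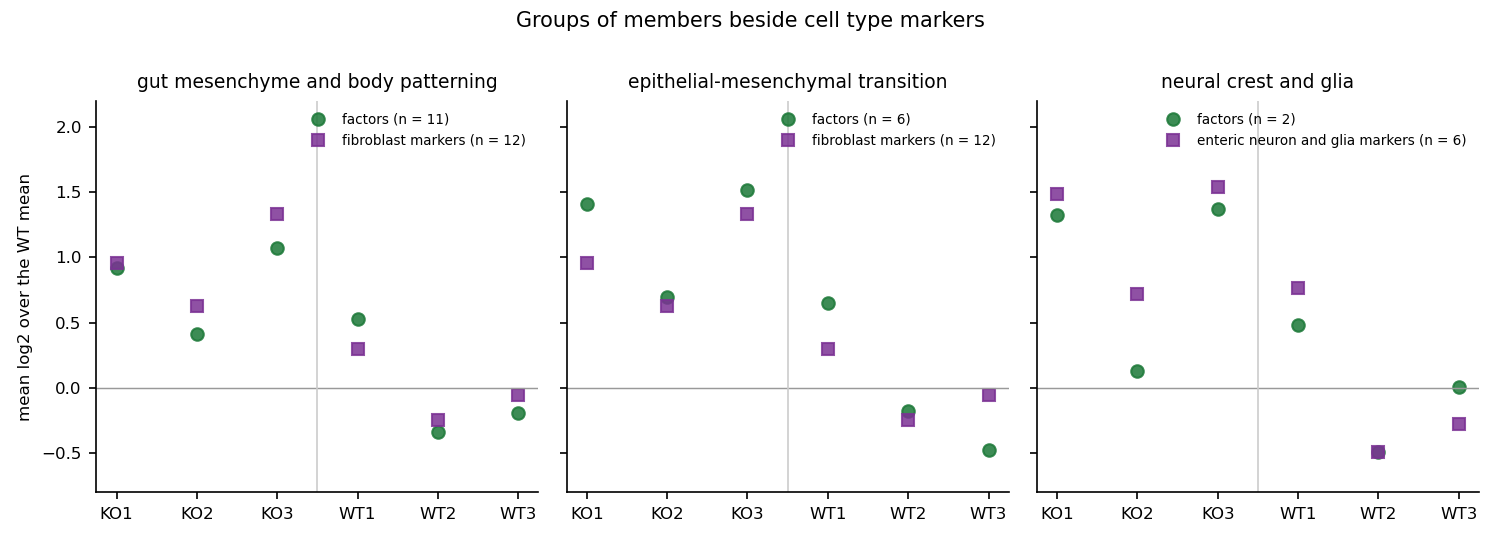
Mean log2 level over the WT mean of 3 groups of factors (circles) and of a matching list of cell type markers (squares) in each KO and WT library. KO2 was the lowest KO library and WT1 the highest WT library for the factors and the markers of each panel. The gap between factors and markers was widest for the glial factors in KO2 (0.13, against 0.72 for the markers), and the lowest WT library was WT3 for the EMT factors but WT2 for the fibroblast markers.

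Sox10 and Sox5 are factors of the neural crest, which gives rise to the enteric nervous system. Sox10, the defining factor of enteric glia, had 172, 69.5 and 166 normalized counts in KO, against 103, 30.5 and 59.4 in WT (log2 fold change 1.12, standard error 0.56, adjusted p = 0.784). KO2 lay below WT1, and Sox10 passed both thresholds once either was left out, at a log2 fold change of 1.54 in each case, whereas it was 0.67 without WT2, 0.89 without KO1 and 0.92 without KO3, short of both thresholds. Sox5 had 85.9, 39.8 and 95.8 in KO and 44.2, 37.7 and 39.3 in WT (log2 fold change 0.76, adjusted p = 0.954). Of 10 enteric neuron and glia markers 7 were listed, Sox10 included, all with a higher level in KO (against 70.0% of listed genes). Both thresholds were passed by 3, against 28.5% higher among listed genes. The summed level of the 7 was 1227 to 2561 normalized counts in KO and 517 to 1433 in WT libraries. Apart from Sox10 their mean log2 difference was 1.25, against 0.94 for Sox10 and Sox5. None of the 7 was at 0 in any library, and the part of glial RNA in the Sox levels was not tested.

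Runx1, needed for the blood lineages, had 560, 612 and 579 normalized counts in KO, against 394, 437 and 394 in WT. The genotypes did not overlap, but the log2 fold change of 0.52 (standard error 0.22, adjusted p = 0.692) had an unadjusted p over 0.05 once any one library was left out and turned to -0.14 with the median-ratio scaling. Among 12 genes that mark monocytes and macrophages, 6 were listed. All 6 had a higher level in KO (against 70.0% of listed genes), and 2 passed both thresholds (against 28.5% higher among listed genes). Their summed level was 4283 to 7311 normalized counts in KO and 2808 to 3412 in WT libraries. Their mean log2 difference was 0.95, against 0.52 for Runx1, none was at 0, and their part in the Runx1 level was not tested.

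A further 12 members act in the epithelium or in metabolism, and all 12 had a lower level in KO, with log2 fold changes of -1.19 to -0.48 and a median of -0.63. None passed both thresholds, against 9.16% lower among listed genes. An unadjusted p under 0.05 was found for 7, against 14.9% lower among listed genes. For 6 every KO library lay below every WT library, against 19.3% of listed genes. These shares are over listed genes of both directions, whereas all 12 members were lower. Of all 2195 listed genes 659 were lower in KO. Of those, 328 had an unadjusted p under 0.05 and 423 did not overlap between genotypes. Against the lower genes alone, neither count of members stands out. The 7 became 1 without WT2, 2 without WT3, 3 without KO2 or KO3 and 4 without KO1. They became 9 without WT1, of which 3 also passed the fold threshold. Over all listed genes the count at an unadjusted p under 0.05, in either direction, was 1207 with all libraries. It was 601 without WT2, 537 without WT3, 1405 without KO2, 713 without KO3, 731 without KO1 and 1524 without WT1. With the median-ratio scaling all 12 passed both thresholds, at a median of -1.29, against a shift of -0.65 for all listed genes. The roles were assigned with the values known, so the shared direction is a description.

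Among the factors of intestinal epithelial identity, Gata6, which maintains crypt proliferation and colonocyte genes, had 632, 542 and 479 normalized counts in KO, against 718, 815 and 948 in WT (log2 fold change -0.59, standard error 0.24, adjusted p = 0.647). Klf5, a factor of dividing crypt cells, had 4467, 5819 and 4256 in KO, against 5617, 7814 and 9578 in WT (log2 fold change -0.64, standard error 0.24, adjusted p = 0.615). KO2 lay just above WT1 for Klf5, while no library overlapped for Gata6. Cebpa, the C/EBP factor of differentiated cells, had 959, 963 and 885 in KO, against 1199, 1248 and 1526 in WT (log2 fold change -0.49, adjusted p = 0.669). Within the C/EBP family the direction was thus mixed, with Cebpa lower and Cebpb and Cebpd higher in KO.

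Foxa2, a forkhead factor of secretory cells, overlapped between genotypes, at 245, 336 and 191 normalized counts in KO and 239, 462 and 624 in WT (log2 fold change -0.71, adjusted p = 0.996). Id1, an inhibitor of basic helix-loop-helix factors and a target of bone morphogenetic proteins, had the highest level per length of all members, at 1388 normalized counts per kilobase in KO and 2861 in WT. By library it had 977, 3021 and 832 normalized counts in KO and 1757, 4558 and 3643 in WT. KO2 lay above WT1 for Id1, so the largest difference in this group, a log2 fold change of -1.19 (standard error 0.54, adjusted p = 0.715), did not pass. Foxo6 was scarce, at 25.5 to 31.8 normalized counts in KO and 27.8 to 98.7 in WT, and overlapped.

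Nuclear receptors and coactivators of metabolism formed the rest. Ppard, the fatty acid receptor PPARδ (chromosome 17 from 28232700 to 28301474), had 2742, 3553 and 2967 normalized counts in KO, against 4163, 5059 and 5017 in WT (log2 fold change -0.62, standard error 0.19, adjusted p = 0.491). Its p was the lowest in this group, and no KO library reached the WT range. Nr1d1, the clock repressor REV-ERBα, had 1047, 575 and 872 in KO, against 1307, 1221 and 1740 in WT (log2 fold change -0.80, standard error 0.29, adjusted p = 0.592). Nr3c2, the mineralocorticoid receptor through which aldosterone raises sodium uptake in the distal colon, had 1503, 1263 and 1180 in KO, against 1752, 1779 and 1945 in WT (log2 fold change -0.48, standard error 0.20, adjusted p = 0.666). For all 3 receptors the genotypes did not overlap, whereas the Nr4a receptors above were higher in KO.

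Ppargc1a and Ppargc1b encode coactivators of mitochondrial genes and are not DNA-binding factors themselves. Ppargc1a had 253, 305 and 505 normalized counts in KO, against 466, 710 and 708 in WT (log2 fold change -0.86, standard error 0.34, adjusted p = 0.631), and KO3 lay within the WT range. Ppargc1b had 442, 420 and 538 in KO and 515, 717 and 752 in WT (log2 fold change -0.49, adjusted p = 0.834). Of 20 known PPAR target genes 3 were listed, and all 3 had a higher level in KO (against 70.0% of listed genes), the opposite direction to Ppard. Lpl, lipoprotein lipase, had a log2 fold change of 1.85 (adjusted p = 0.576) with WT1 (1768 normalized counts) inside the KO range of 1448 to 2521. Angptl4 had a log2 fold change of 1.57 (adjusted p = 0.74). For Angptl4, WT1 (380 normalized counts) lay above KO1 (306) and KO2 (227), and only KO3 (993) lay above WT1.

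Levels of other epithelial genes stood beside these 12 members. The 3 listed goblet markers of 8 had a lower level in KO, 2 past both thresholds, with the summed levels given above and none at 0. Of 16 Wnt target genes of the crypt 5 were listed, 4 with a lower level in KO, 2 of them past both thresholds. Ascl2, the stem cell factor, had 4.24, 0 and 0.91 normalized counts in KO, against 7.02, 19.3 and 44.1 in WT (log2 fold change -3.17, standard error 0.81, adjusted p = 0.429). Axin2 had 70.0, 84.8 and 82.1 in KO, against 94.3, 207 and 336 in WT (log2 fold change -1.24, adjusted p = 0.628), and Ephb3 and Rnf43 had log2 fold changes of -0.92 and -0.79. Of the 2 listed colonocyte markers, Aqp8 had a log2 fold change of -0.89 (adjusted p = 0.691) and Guca2a one of 2.17 (adjusted p = 0.568). The part of cell makeup in the lower factor levels was not tested.

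**Figure D4:**
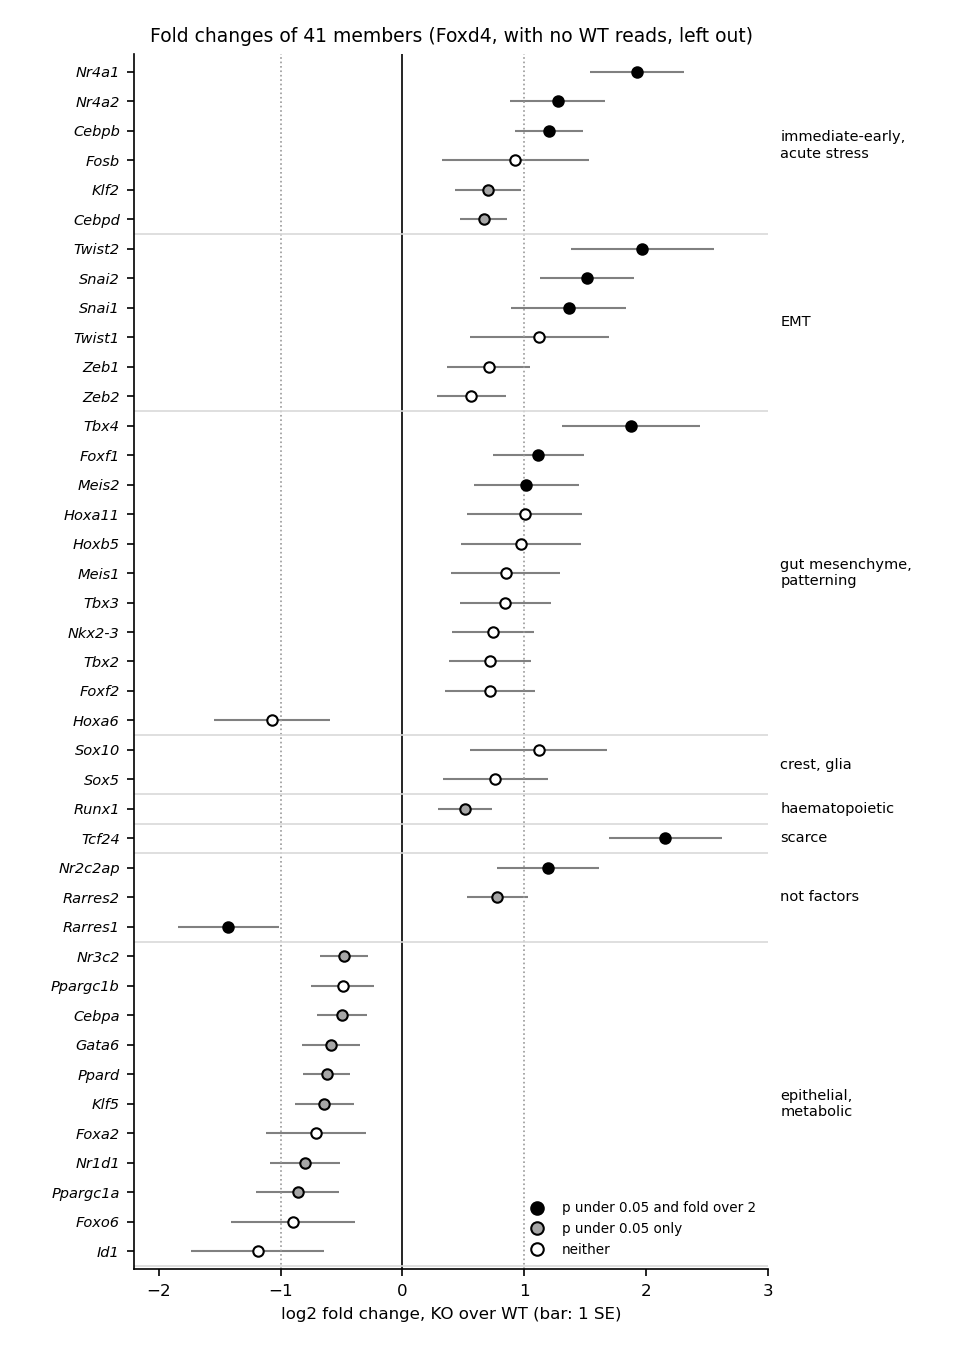
Log2 fold change of KO over WT for 41 members by role, with bars of 1 standard error, filled black for an unadjusted p under 0.05 with a fold change over 2, grey for p alone and white for neither. The epithelial and metabolic members drawn lie at -1.19 to -0.48, left of 0, and Hoxa6 and Rarres1 are the other members on that side.

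Tcf24 (chromosome 1 from 9960163 to 9967932), a basic helix-loop-helix factor, was rare, at 15.9, 10.2 and 13.7 normalized counts in KO, against 1.0, 3.05 and 2.87 in WT, from 40 and 7 recovered reads in all. The ratio of these sums was 5.72 with an exact 95% interval of 2.54 to 15.1, which covers counting error only (log2 fold change 2.16, adjusted p = 0.384). Foxd4, a forkhead gene, had 10 reads over the KO libraries, at 2.12, 2.04 and 5.47 normalized counts, and 0 in each WT library. A count of 0 in the 3 WT libraries allows a level of up to 0.992 normalized counts on average, and no fold is given because the fitted value depends on the pseudocount.

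The naming rule also took in 3 genes that are not transcription factors. Rarres1, a retinoic acid responder, was the only member lower in KO past both thresholds, with 5.30, 4.09 and 7.30 normalized counts in KO, against 20.1, 13.2 and 16.3 in WT (log2 fold change -1.43, standard error 0.42, adjusted p = 0.481). Rarres2, which encodes the chemoattractant chemerin, had 1023, 960 and 1249 in KO, against 713, 690 and 491 in WT (log2 fold change 0.78, standard error 0.25, adjusted p = 0.509). The direction of the pair thus differed, and neither overlapped between genotypes. Nr2c2ap, whose product binds the orphan receptor Nr2c2, had 25.5, 24.5 and 37.4 in KO, against 16.1, 12.2 and 8.62 in WT (log2 fold change 1.19, adjusted p = 0.576). It fell short of the thresholds without KO3, WT2 or WT3, with a pseudocount of 5 and with the median-ratio scaling. Since 82.4% of its exon bases are shared with Rfxank on the opposite strand, its reads are uncertain. Exons of 21 members share some bases with a gene on the other strand, and only for Nr2c2ap was the share over 50%.

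Transcription factors outside the naming rule were counted for comparison. The authors' annotation gives a factor family to 106 listed genes, 38 of them members. Of the other 68 genes 45 had a higher and 23 a lower level in KO, 14 and 2 past both thresholds. Their median log2 fold change was 0.73. Among all 2195 listed genes 70.0% were higher in KO and the median was 0.79. Both thresholds were passed by 28.5% as higher and by 9.16% as lower. From a list of 94 other lineage and stress factors 19 were listed, 12 higher and 7 lower, of which 4 and 1 passed both thresholds. Nfil3, a factor that cytokines induce in immune cells, had 512, 552 and 754 normalized counts in KO, against 254, 162 and 229 in WT (log2 fold change 1.5, standard error 0.30, adjusted p = 0.384). The scarce genes Nfe2, a factor of megakaryocytes, and Msx1, a homeobox gene of mesenchyme, had log2 fold changes of 1.96 and 1.51, and Ascl2 was the 1 gene lower past both thresholds.

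Among the members higher in KO the same libraries were often nearest the other genotype. KO2 was the lowest KO library for 28 of the 30 members higher in KO (93.3%, against 68.1% of the listed genes that were higher), and WT1 the highest WT library for 25 of 30 (83.3%, against 81%). WT1 was also the lowest WT library for 11 of the 14 members lower in KO (78.6%, against 63.7%). The highest KO library for these 14 members was KO2 for 6 (42.9%, against 48.7%), KO1 for 5 and KO3 for 3. The labels give no batch, sex or litter for these libraries.

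**Figure D5:**
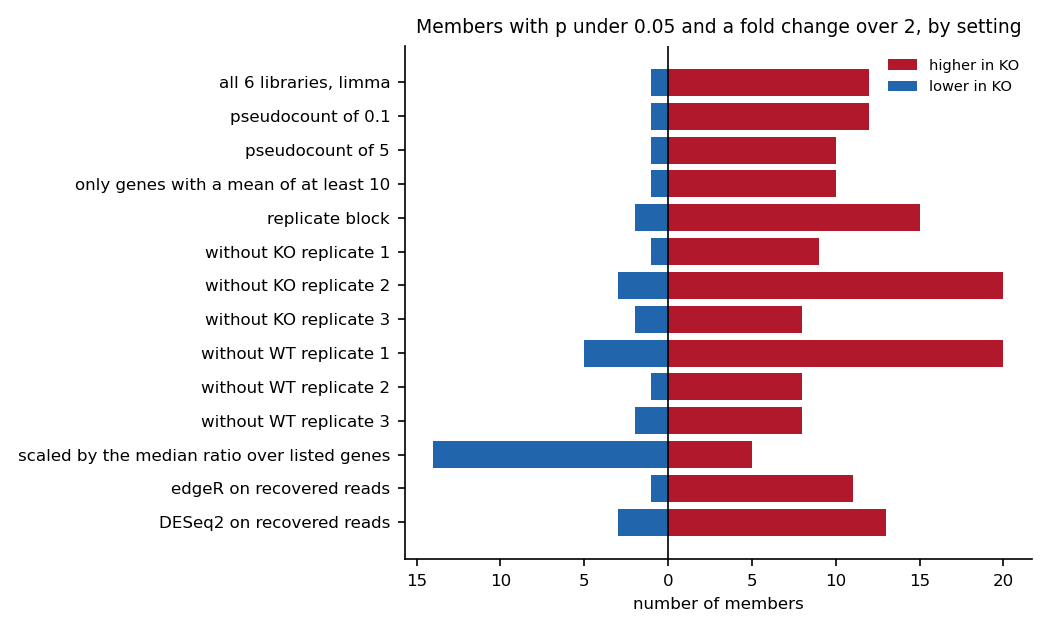
Number of members with an unadjusted p under 0.05 and a fold change over 2, higher (red, to the right) and lower (blue, to the left) in KO, under each setting. The total was 13 with all libraries, 25 without WT1, 23 without KO2 and 9 without WT2, and the median-ratio scaling gave 5 higher and 14 lower. Over all 2195 listed genes, not drawn, it was 826, 1210, 1120 and 507 in the same order. The scaling gave 184 higher and 639 lower there.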

How the data were processed

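RNA-Seq was performed on colon tissue of 3 Gab1IEC-KO and 3 Gab1fl/fl mice, grouped by their labels. Per the submitters' processing notes, the authors aligned reads with HISAT2 2.0.5 and counted them with featureCounts 1.5.0-p3. The notes name hg18, but the coordinates are those of mouse GRCm38 (42 of 44 members match GENCODE M21 exactly). Values deposited by the authors are a signal, the reads of a gene over a size factor for each library. The authors also deposited log2 fold changes, p-values (raw and adjusted), group means and gene lengths. Which tool made these and the size factors was not given in the sources used here, and no deposited fold change or p-value is reported. Only genes with an unadjusted p under 0.05 are listed, so no test here is independent of that choice. The limma p-values set the difference between genotypes against the spread among 3 mice per genotype, moderated over all listed genes.

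Each value is a whole multiple of a library's step of 0.912 to 1.06, so whole reads were recovered within 0.01 for 100% of values (1957437 to 2787670 reads per library in listed genes, which is not the depth). The main test was limma 3.58.1 (R 4.3.3) on log2(normalized count + 1) over all 2195 listed genes, with a trended prior and Benjamini-Hochberg adjustment over 16716 genes, the number that the deposited adjusted p-values imply. Fold changes on this scale understate the change of low genes. Alternatives were edgeR 4.0.16 and DESeq2 1.42.0 on the recovered reads, pseudocounts of 0.1 and 5, only genes with a mean of at least 10, median-ratio scaling over listed genes, a replicate block and leaving out each library. The code was tested on simulated data. Members and gene lists were chosen with earlier results of these data known, and roles and promoter motifs were assigned after the values were seen. Members are named, with values in each library for those past both thresholds and their families, and of other lists up to 4 genes with the largest change. A few genes that this rule would name, 2 members among them, enter the counts but are not reported here. Other genes named beside them (Nr4a3, the gene of E-cadherin and Epcam) have no value here. Promoter windows are from RefSeq (GRCm38.p6).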

Additional observations from a re-analysis of the deposited data

How the results depend on the processing

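The number of members past both thresholds (13) ranged over 9 to 25 when each library was left out in turn, that at an unadjusted p under 0.05 (25) over 12 to 38, and that without overlap between genotypes (24) over 24 to 42. No member had an adjusted p under 0.05 in limma with any library left out, and DESeq2 called 2. Leaving out WT1 raised these counts to 25, 38 and 42, and leaving out KO2 raised them to 23, 32 and 39. The unadjusted count was 12 without WT2, 13 without WT3 and 15 without KO3. Over all 2195 listed genes the count past both thresholds (826) ranged over 425 to 1210. That at an unadjusted p under 0.05 (1207) ranged over 537 to 1524. The number without overlap was not counted over all listed genes in these fits. The median log2 fold change of the members was 0.59 to 0.97 over these fits. With the median-ratio scaling the median log2 fold change of the members was 0.0987, against 0.7517 on the deposited scale. Runx1 moved to -0.14 and Zeb2 to -0.093. The median of all listed genes shifted by -0.65 under the same scaling, and which scale is the better one was not tested. The other alternatives kept the count past both thresholds between 11 and 17. Leaving out Foxd4, chosen after seeing the data, gave 12. The direction of the other 42 members was the same under every alternative.

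With the replicate number as a block, 17 members passed both thresholds, 28 had an unadjusted p under 0.05, 0 had an adjusted p under 0.05, and the median log2 fold change stayed 0.7517. The numbers were not taken to pair the samples, because the deviations of same-numbered libraries from their group means correlated at 0.1975, 0.2995 and -0.1404, and not every library correlated best with its own number. No Nr4a3, Gab1 or other unlisted gene could be followed, and levels under about 1 normalized count lie at the limit that a count of 0 allows.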

Other observations

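Gene lists for pathways that the factors above regulate, and for other cell types, gave these further values. Of 20 target genes of bile acid and xenobiotic receptors 5 were listed. Fabp6, the ileal bile acid binding protein, had 41.4, 30.6 and 100 normalized counts in KO, against 127, 185 and 344 in WT (log2 fold change -1.97, adjusted p = 0.462). Cyp2c65 and Cyp2c55, cytochromes of the gut, were uneven among KO libraries, at 1207, 44.9 and 114 normalized counts in KO, against 34.1, 25.4 and 0.96 in WT for Cyp2c65, and at 1959, 8.17 and 720 in KO, against 40.1, 11.2 and 7.66 in WT for Cyp2c55. Cyp3a25 had 1.06 to 7.15 normalized counts in KO and 0 in each WT library. Of 20 hypoxia targets 4 were listed, with log2 fold changes of 1.23 for Hmox1, 1.03 for P4ha2, 0.94 for Slc2a3 and -0.60 for Pfkfb4, of which P4ha2 passed both thresholds. Ddit4, with 0.76, was the 1 listed gene of 17 in the integrated stress response list.

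Among 12 genes that mark neutrophils 5 were listed. Each was higher in KO (against 70.0% of listed genes), and 4 passed both thresholds (against 28.5% higher among listed genes). The summed level of these markers was 1141 to 3727 normalized counts in KO and 376 to 1034 in WT libraries. Among them S100a9 had 497, 1073 and 1485 in KO, against 347, 97.7 and 111 in WT (log2 fold change 2.56, adjusted p = 0.384). Of 10 endothelial markers 3 were listed with a higher level in KO and none past the thresholds. Of 10 B cell and plasma cell markers, Ms4a1 and Fcer2a had log2 fold changes of -1.52 and -1.64, past both thresholds, and Sdc1, which epithelium also expresses, had 0.78. The T cell genes Foxp3 and Il7r had 1.2 and 0.72, the mast cell gene Tpsb2 had 2.71 and the tuft cell gene Dclk1 had 0.50.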
